A study of Homo sapiens with 16 samples.

Results

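The spliceosome core and hnRNP genes are 42 genes whose products remove introns from pre-mRNA or coat it. They were chosen by name and not by a rule on measured values, but with earlier results of these data known. The set holds 8 SF3A and SF3B subunits of the U2 particle, the 2 U2AF subunits, 3 U1 proteins and the 7 Sm ring proteins. It also holds 2 U5 proteins, 5 nuclear speckle and SR-related proteins and 15 hnRNPs. All 42 were found among the 23597 genes of the RNA-seq table and among the 19201 genes of the Ribo-seq table, and all 42 passed the filter on low counts in both assays. Their lowest count in any library was 278 reads in RNA-seq (HNRNPH2) and 110 footprints in Ribo-seq (SF3A2). RNA and ribosome footprints, the stretches of mRNA that ribosomes protect from nuclease, were compared for them in young and senescent cells with and without heat shock.

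An intron is removed by small nuclear ribonucleoproteins (snRNPs) that assemble on it in turn. U1 marks the start of the intron, U2AF and U2 mark its end and the branch site, and the tri-snRNP brings in U5, whose PRPF8 holds the catalytic centre. The hnRNPs bind the nascent transcript and steer splice site choice, and the SR and SR-related proteins help the snRNPs to assemble. Severe heat shock is known to inhibit splicing of many transcripts while heat shock genes are transcribed.

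The cells were WI-38, a line of human lung fibroblasts with a limited division span, labelled young at passage 24 and senescent at passage 36. Cells of all groups were kept without serum for 24 h and given complete medium for another 24 h. Those labelled heat shock then spent 2 h at 44 °C (the degree sign of the label is written as a 0), and the others were controls. With 2 assays, 2 cell states and 2 treatments there were 8 groups of 2 libraries, 16 in all. No label says that same-group libraries came from separate cultures, so p-values measure only the spread between these libraries, which may be technical. The states differ in passage, so passage and senescence cannot be told apart.

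Library totals were 26434514 to 37126871 counts in RNA-seq and 4581141 to 9104077 in Ribo-seq, and the 42 genes took 0.598% to 0.816% of RNA counts and 0.896% to 1.36% of footprint counts. All 8 fibroblast markers were detected (COL1A1 at 1486 to 3377 TPM in RNA), whereas EPCAM, CDH1, KRT5, SFTPC, NKX2-1, PECAM1, CDH5, VWF, KDR, PTPRC, CD14, CD3E and MS4A1 were at or near 0, at most 1.18 TPM wherever listed. KRT19 (46.6 to 106.7 TPM in RNA) and CD68 (103 to 178 TPM) were detected. Footprints of the collagen gene COL1A1 fell by 2.08 on the log2 scale with heat shock in young cells and fell by 3.83 in senescent cells, beside RNA changes of 0.35 and 0.44 that did not pass the test. The heat-inducible chaperone gene HSPA1A rose in the RNA of young cells by 8.06 ± 0.26 (log2 fold change ± SE) and of senescent cells by 7.34 ± 0.26. The cyclin-dependent kinase inhibitor gene CDKN1A was at 0.95 ± 0.28 in senescent against young control RNA, not past the test (adjusted p = 0.432). It was past the test with replicate number as a block (adjusted p = 0.0148). LMNB1 and MKI67, also checked for the senescent label, were at -1.23 ± 0.48 and -1.18 ± 0.72 in this comparison. Neither passed without the block (adjusted p = 0.653 and 0.815) or with it (0.0621 and 0.0503). The 2 young control footprint libraries were far more alike than any other pair. Their counts gave a chi-square per degree of freedom of 1.75, above sampling noise alone, against 16.7 to 36.9 in the other footprint pairs and 66.5 to 101 in RNA. Calls on heat shock in footprints and efficiency are therefore also given with both counted as 1 sample, under which COL1A1 was still called in both states (adjusted p = 0.0304 in young and 0.000345 in senescent footprints).

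Before heat shock the members already differed in footprint density relative to RNA. This was measured as the log2 ratio of footprint TPM to RNA TPM, both scaled by length. It is therefore not the number of footprints per transcript, which also depends on coding length. Its zero depends on the scaling of each assay and on the lengths the authors' pipeline used, coding length for footprints and transcript length for RNA as far as the values show, so it ranks genes and gives no absolute rate. The median of the members was 0.40 in young control, against -0.22 for 11160 genes tested, and 35 of 42 lay above that. The 7 Sm ring genes, whose short proteins close around the snRNAs, had a median of 1.81, the hnRNPs 0.79 and the U5 proteins -0.90.

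At the low end in young control stood SON, which organises nuclear speckles, with RNA TPM of 105.3 and 75.6 and footprint TPM of 32.1 and 32.6, a log2 ratio of -1.48. PRPF8 and the Sm gene SNRPB followed at -1.04 each. At the high end stood SNRPE, an Sm gene, at 2.97, with RNA TPM of 108.6 and 80.5 and footprint TPM of 727 and 751, and HNRNPH2 at 2.74. SNRPE and HNRNPH2 overlapped over the pairs of libraries (2.74 to 3.22 and 2.62 to 2.85), as did SNRPB and PRPF8 (-1.16 to -0.92 and -1.10 to -0.97). Genes with near-identical copies or pseudogenes, such as HNRNPH1 with HNRNPH2, SNRPB with SNRPN, HNRNPC, HNRNPA3 and SNRPE, can share reads, and their levels are uncertain by that much. In senescent heat-shocked cells the median of the members was 0.82 (all genes -0.09), with SON at 0.45 and SNRPE at 3.47.

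**Figure D1:**
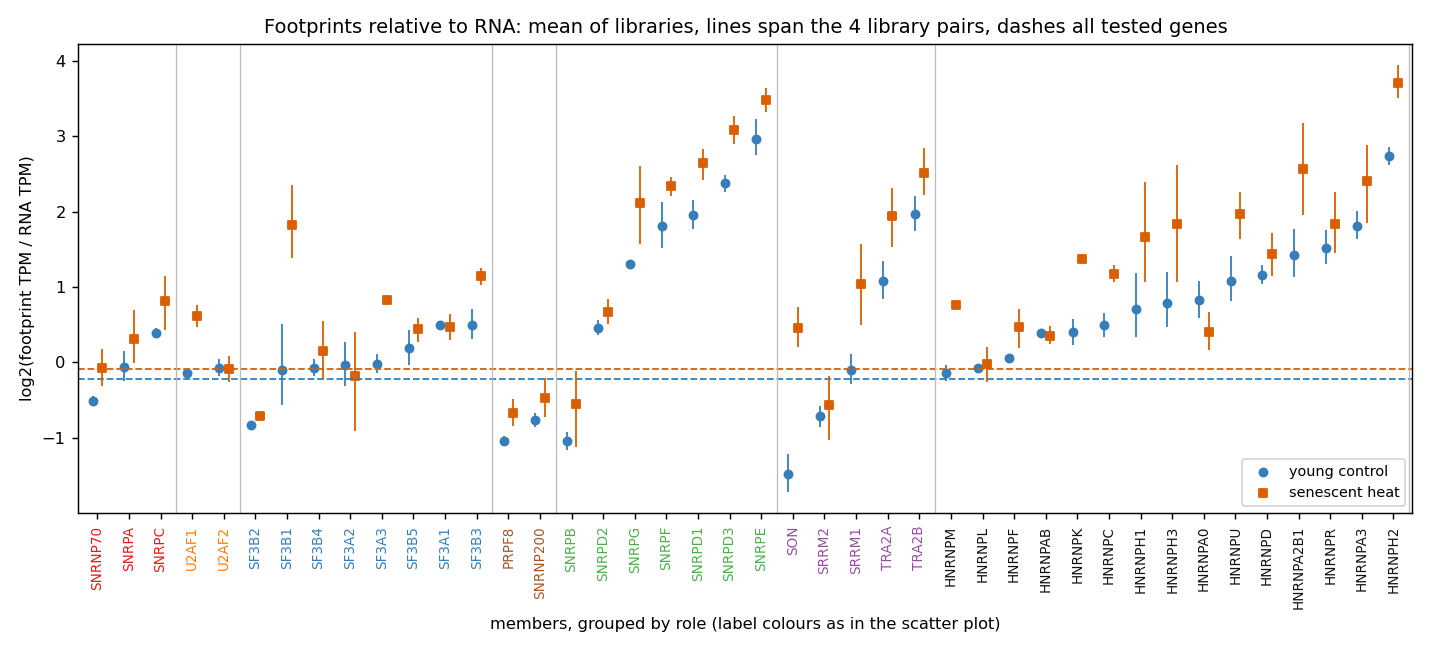
Log2 ratio of footprint TPM to RNA TPM (y axis, no unit) for each of the 42 genes (x axis, grouped by role) in young control (blue circles) and senescent heat-shocked cells (orange squares). Points are ratios of the means of 2 libraries, lines span the 4 pairings of a footprint with an RNA library, and dashes are medians of all genes tested, -0.22 and -0.09. Most members lie above the dashes, the Sm gene SNRPE reaches 2.97 and 3.47, and SON goes from -1.48 to 0.45.

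After heat shock, footprints of 10 of the 42 genes rose past the test in senescent cells and none fell, where 3.12% of 11288 genes rose and 5.24% fell. The 10 were SF3B1 (1.40), SON (1.25), SNRPA (1.19), PRPF8 (1.12), HNRNPH2 (1.03), TRA2A (1.00), SNRNP200 (0.94), HNRNPC (0.84), TRA2B (0.82) and HNRNPK (0.81), as log2 fold changes. In young cells 1 member, SF3B1, rose (1.05 ± 0.17, adjusted p = 0.0266), where 0.771% of genes did. The tests are edgeR's quasi-likelihood test with Benjamini-Hochberg adjustment over all genes. Levels below are footprint or read CPM after TMM scaling (scaled CPM), with no correction for length, so they compare libraries and not genes. In bulk libraries fewer cells of a type and less RNA per cell cannot be told apart.

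The median footprint change over the 42 genes was 0.57 in senescent cells (0.03 over all genes) and 0.32 in young cells (-0.01), and on the log2(TPM + 1) scale it was 0.26 and 0.14. In senescent cells 31 members had both heat-shocked libraries above both controls, against 26.8% of all genes, and 1 had both below, against 27.0%. In young cells these counts were 23 members, against 27.4%, and 3 members, against 31.6%. Scaling by library size alone moved the median of all genes on heat shock to -0.27 (young) and -0.23 (senescent) in RNA and to -0.28 and -0.25 in footprints. Under it the members' footprint medians were 0.04 and 0.29, both still above those of all genes. In senescent cells 8 members then rose and 1, HNRNPA0, fell (-0.85, adjusted p = 0.0363). Over all genes it gave 173 higher and 1180 lower footprint calls in place of 352 and 591 in senescent cells, and 68 and 169 in place of 87 and 43 in young cells.

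Which libraries were used and whether the replicate number was a block set how many calls there were. With replicate number as a block 17 members rose in senescent cells (5.98% of genes) and 4 in young cells (1.53%), the latter SF3B1, SNRPA (adjusted p = 0.0310), TRA2A (0.0245) and PRPF8 (0.0476). Same-numbered footprint libraries deviated together in senescent cells (correlation 0.252) and not in young cells (-0.034). With the 2 young control footprint libraries counted as 1 sample, SF3B1 (adjusted p = 0.0177), SON (0.0393) and PRPF8 (0.0449) remained called in senescent cells and no member in young cells (SF3B1 1.05, adjusted p = 0.393). Leaving out 1 library at a time left between 1 and 15 of 42 called in senescent cells: 1 without either senescent control library, 3 without either young control library, 2 without senescent heat-shocked library 2 and 15 without senescent heat-shocked library 1. SF3B1 was called in each of these 8 fits, with an adjusted p of at most 0.0370. In young cells the count was 0 without any of the 4 young libraries and 4 without either senescent heat-shocked library.

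**Figure D2:**
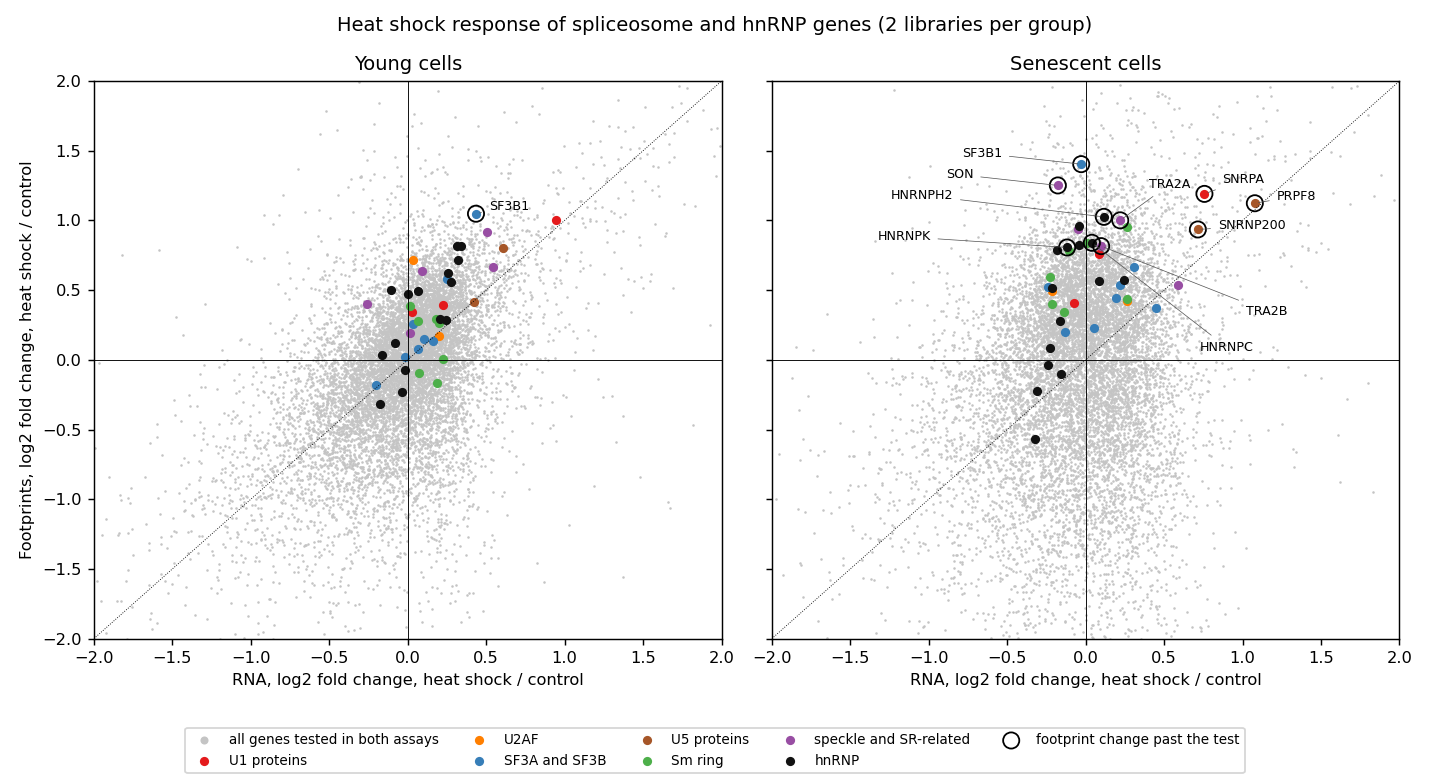
Log2 fold change on heat shock in RNA (x axis) against footprints (y axis), in young cells (left) and senescent cells (right), from fits over 2 libraries per group. Grey dots are all genes tested in both assays within the range drawn, from -2 to 2, coloured dots are the 42 members by role, rings mark footprint changes past the test, and the dotted line is equal change. In senescent cells the 10 ringed genes lie between 0.81 and 1.40 in footprints, while PRPF8, SNRPA and SNRNP200 alone among them lie beyond 0.7 in RNA.

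SF3B1, the U2 subunit that grips the branch site and is often mutated in myelodysplastic neoplasms, had the largest footprint response of the 42. SF3B1 footprints were at 279.7 and 281 scaled CPM in young control, 626 and 533 in young heat-shocked, 286 and 270.1 in senescent control and 695 and 777 in senescent heat-shocked libraries. Controls of both states were within 270.1 to 286.5, and every heat-shocked library was above every control in both states. SF3B1 RNA was at 260.1 and 146 in young control, 319 and 229 in young heat-shocked, 257 and 121 in senescent control and 220.1 and 150.1 in senescent heat-shocked libraries. In each group the first RNA library was above the second, and heat-shocked and control RNA overlapped in both states. The footprint change in senescent cells was 1.40 ± 0.17 (adjusted p = 0.00418). Of the other U2 subunits, SF3B3, which sits beside SF3B1, had 0.66 ± 0.20 in senescent cells (adjusted p = 0.078), and all 8 SF3A and SF3B genes had a fitted footprint change above 0 there, from 0.20 (SF3B4) to 1.40. The U2AF genes, whose products bind the end of the intron, were at 0.49 ± 0.33 (U2AF1) and 0.42 ± 0.21 (U2AF2), not past the test.

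SNRPA, the U1 protein that binds a stem loop of U1 snRNA, was the member with the highest fitted RNA response in young cells. SNRPA footprints were at 57.4 and 51.2 scaled CPM in young control, 96.2 and 121 in young heat-shocked, 36.9 and 42.2 in senescent control and 87.3 and 93.4 in senescent heat-shocked libraries. SNRPA RNA was at 51.9 and 47.1 in young control, 105 and 86.4 in young heat-shocked, 35.4 and 39.1 in senescent control and 70.6 and 55.3 in senescent heat-shocked libraries. Heat-shocked libraries were above their controls in both states and both assays, and senescent libraries were below young ones in each treatment. Its footprints changed in senescent cells by 1.19 ± 0.21 (adjusted p = 0.0164) and were at 1.00 ± 0.21 in young cells (adjusted p = 0.059). Its RNA was at 0.95 ± 0.21 in young cells (adjusted p = 0.099) and 0.76 ± 0.21 in senescent cells (0.262). With replicate number as a block both RNA changes passed, at 0.94 ± 0.14 (adjusted p = 0.00727) and 0.74 ± 0.15 (0.0267). The other U1 genes, SNRPC and SNRNP70, were at 0.76 ± 0.27 and 0.40 ± 0.26 in senescent footprints, not past the test.

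The U5 proteins PRPF8 and SNRNP200, the scaffold of the catalytic centre and the helicase that unwinds the paired U4 and U6 snRNAs, had fitted changes of similar size in RNA and in footprints. PRPF8 footprints were at 297 and 301 scaled CPM in young control, 562 and 478 in young heat-shocked, 299.8 and 271 in senescent control and 563 and 680.0 in senescent heat-shocked libraries. PRPF8 RNA was at 274 and 269.7 in young control, 379.9 and 447 in young heat-shocked, 159.8 and 260.0 in senescent control and 361 and 525 in senescent heat-shocked libraries. Heat-shocked libraries were above their controls in both states and both assays. SNRNP200 footprints were at 210.1 and 204 in young control, 278 and 273 in young heat-shocked, 164 and 164 in senescent control and 284 and 344 in senescent heat-shocked libraries. SNRNP200 RNA was at 171 and 167 in young control, 201 and 251 in young heat-shocked, 109 and 150.2 in senescent control and 163 and 262 in senescent heat-shocked libraries. These too did not overlap between heat shock and control. In senescent footprints PRPF8 changed by 1.12 ± 0.18 (adjusted p = 0.0122) and SNRNP200 by 0.94 ± 0.17 (0.0193). In senescent RNA they were at 1.08 ± 0.28 (adjusted p = 0.223) and 0.72 ± 0.27 (0.504), and passed with the block (adjusted p = 0.0121 and 0.0478).

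Among the speckle and SR-related genes, footprints of SON, TRA2A and TRA2B rose in senescent cells. SON footprints were at 247 and 230.0 scaled CPM in young control, 326 and 417 in young heat-shocked, 199 and 218 in senescent control and 438 and 556 in senescent heat-shocked libraries. SON RNA was at 214 and 173 in young control, 217 and 193 in young heat-shocked, 167 and 147 in senescent control and 153 and 124 in senescent heat-shocked libraries. SON footprints were higher in all heat-shocked libraries than in their controls, while its RNA overlapped between treatments in both states. TRA2A and TRA2B encode SR-like activators of exon inclusion. TRA2A footprints were at 131 and 129.9 in young control, 258 and 235 in young heat-shocked, 121 and 98.3 in senescent control and 226 and 214 in senescent heat-shocked libraries. TRA2A RNA was at 81.3 and 63.3 in young control, 109 and 96.4 in young heat-shocked, 70.1 and 49.6 in senescent control and 70.7 and 68.8 in senescent heat-shocked libraries. TRA2A RNA was separated by heat shock in young cells and overlapped in senescent cells. TRA2B footprints were at 214 and 225 in young control, 371 and 325 in young heat-shocked, 157 and 166 in senescent control and 259 and 310.4 in senescent heat-shocked libraries. TRA2B RNA was at 148 and 126 in young control, 216 and 182 in young heat-shocked, 128 and 99.5 in senescent control and 132 and 111 in senescent heat-shocked libraries. TRA2B showed the same order in RNA: apart in young cells, overlapping in senescent cells. In senescent footprints the changes were 1.25 ± 0.20 for SON (adjusted p = 0.0121), 1.00 ± 0.19 for TRA2A (0.0189) and 0.82 ± 0.18 for TRA2B (0.03). TRA2B RNA in young cells was at 0.54 ± 0.21 (adjusted p = 0.415; 0.0216 with the block). SRRM1 and SRRM2, large matrix proteins that act as splicing coactivators, were at 0.94 ± 0.33 and 0.53 ± 0.30 in senescent footprints, not past the test.

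Of the 15 hnRNPs, HNRNPH2, HNRNPC and HNRNPK rose in senescent footprints and none fell past the test. HNRNPH2 is one of the hnRNPs that bind runs of G. HNRNPH2 footprints were at 126 and 136 scaled CPM in young control, 212 and 151 in young heat-shocked, 117 and 107 in senescent control and 211 and 245 in senescent heat-shocked libraries. HNRNPH2 RNA was at 14.3 and 16.6 in young control, 15.8 and 15.1 in young heat-shocked, 15.0 and 10.0 in senescent control and 14.4 and 12.8 in senescent heat-shocked libraries. Its RNA overlapped between treatments, while its footprints did not in either state. HNRNPC footprints were at 306 and 333 in young control, 606 and 445 in young heat-shocked, 370.4 and 310.5 in senescent control and 569.6 and 649 in senescent heat-shocked libraries. HNRNPC RNA was at 389 and 362 in young control, 467 and 469 in young heat-shocked, 470.5 and 400.5 in senescent control and 441 and 454 in senescent heat-shocked libraries. HNRNPC binds U tracts and competes with U2AF; its footprints were apart between treatments in both states, and its RNA was apart in young cells and overlapped in senescent cells. HNRNPK footprints were at 770.1 and 785 in young control, 1249.6 and 1144 in young heat-shocked, 885 and 839 in senescent control and 1421 and 1593 in senescent heat-shocked libraries. HNRNPK RNA was at 603 and 516 in young control, 696 and 642 in young heat-shocked, 682 and 534 in senescent control and 522 and 598 in senescent heat-shocked libraries. HNRNPK, a KH-domain protein that binds runs of C, had the same order. The senescent footprint changes were 1.03 ± 0.21 (adjusted p = 0.0269), 0.84 ± 0.20 (0.0414) and 0.81 ± 0.17 (0.0252) in that order.

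Other hnRNPs had changes as large with wider spread. HNRNPA2B1 footprints were at 775 and 832 scaled CPM in young control, 1845 and 982 in young heat-shocked, 815 and 508 in senescent control and 1463 and 1105 in senescent heat-shocked libraries. Young heat-shocked library 1 was far above library 2, and heat-shocked libraries were above controls in both states. HNRNPA2B1 is one of the core hnRNPs that package nascent RNA, and its footprint changes were 0.81 ± 0.33 in young (adjusted p = 0.277) and 0.96 ± 0.33 in senescent cells (0.0998). HNRNPH1 footprints were at 445 and 450.3 in young control, 754 and 562 in young heat-shocked, 438 and 309 in senescent control and 692 and 627 in senescent heat-shocked libraries. HNRNPH3 footprints were at 189 and 194 in young control, 461 and 213 in young heat-shocked, 264 and 133 in senescent control and 340.2 and 248 in senescent heat-shocked libraries. HNRNPH1 was apart between treatments in both states, HNRNPH3 in young cells only, where its first heat-shocked library stood far above the second. HNRNPA3 footprints were at 663 and 693 in young control, 1293 and 613 in young heat-shocked, 704 and 407 in senescent control and 792 and 555 in senescent heat-shocked libraries. HNRNPM footprints were at 229 and 241 in young control, 338 and 238 in young heat-shocked, 216 and 152 in senescent control and 302 and 333 in senescent heat-shocked libraries. HNRNPA3 overlapped in both states, and HNRNPM, known for promoting exon skipping, was apart in senescent cells only. At the other end HNRNPA0 was lower in all heat-shocked footprint libraries than in their controls, at -0.32 ± 0.20 in young and -0.56 ± 0.20 in senescent cells, not past the test (adjusted p = 0.484 and 0.112). HNRNPF, HNRNPD and HNRNPAB were at -0.23 ± 0.30, -0.10 ± 0.31 and -0.04 ± 0.18 in senescent footprints. None of the 7 Sm ring genes passed in either state. In senescent cells their changes ran from 0.34 ± 0.25 (SNRPD1) to 0.95 ± 0.35 (SNRPB).

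**Figure D3:**
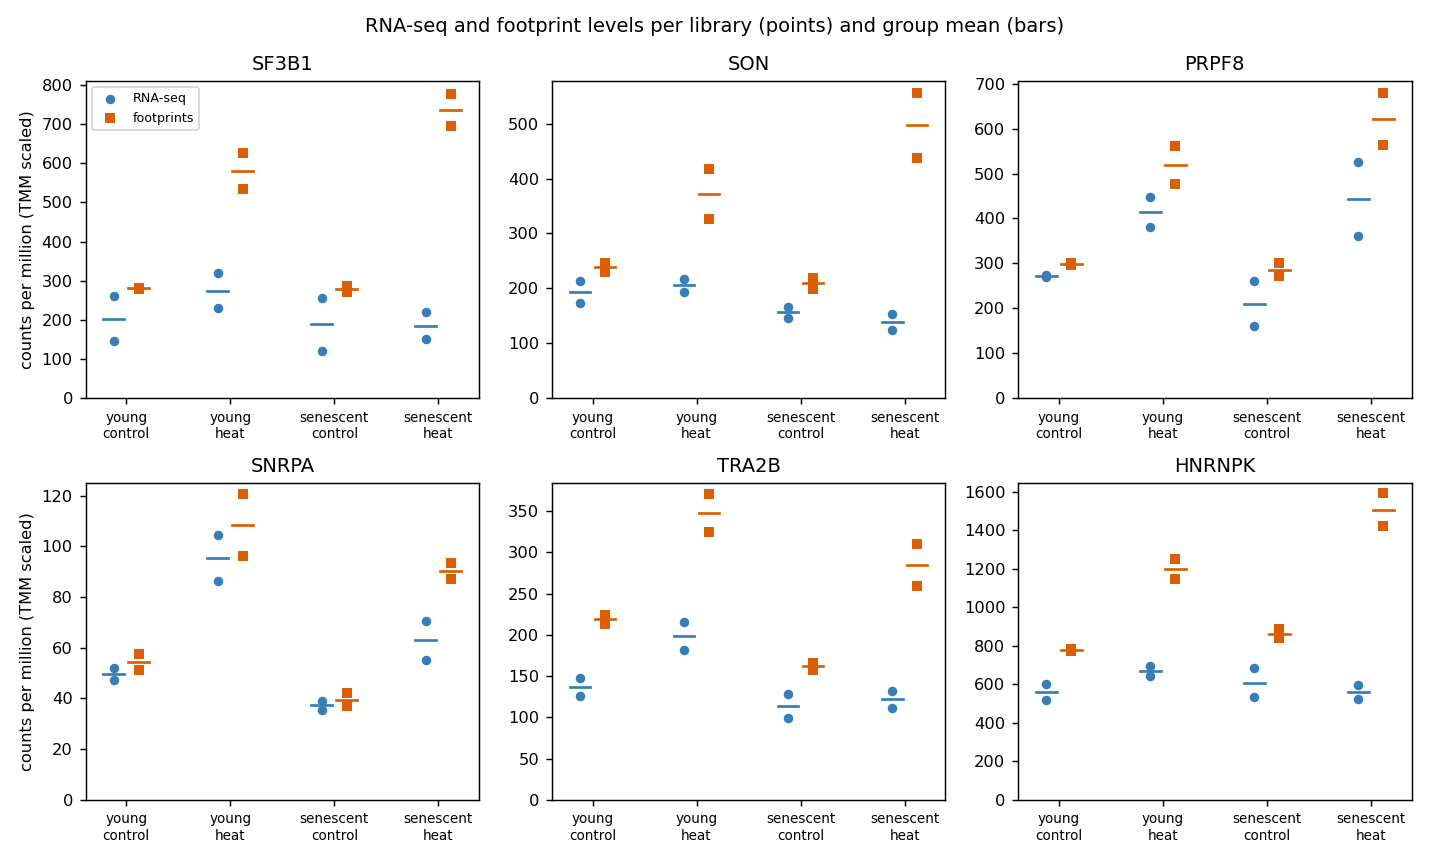
Scaled CPM (y axis, from 0) of 6 members in each library, RNA-seq as blue circles and footprints as orange squares, over the 4 conditions (x axis); bars are means of 2 libraries. Footprints of SF3B1 rise from 270.1 to 286.5 in the control libraries to 533 to 777 after heat shock, while SF3B1 RNA overlaps between treatments, and PRPF8 and SNRPA are higher after heat shock in both assays.

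In RNA, none of the 42 members passed the test on heat shock in young cells, where 1.14% of 13177 genes did, or in senescent cells, where 0.577% did. At an unadjusted p under 0.05 there were 2 members in young cells (10.1% of all genes) and 3 in senescent cells (8.29%). DESeq2 called 1 in each state, SNRPA in young and PRPF8 in senescent cells, and limma on log2 TPM called 0 in each. Over all genes DESeq2 called 221 higher and 224 lower in young RNA, and 126 and 159 in senescent RNA. Limma called 192 genes in young and 128 in senescent RNA, in either direction. With replicate number as a block, for which same-numbered RNA libraries deviated together, 2 members rose in young cells (SNRPA and TRA2B, where 3.64% of genes rose) and 3 in senescent cells (PRPF8, SNRPA and SNRNP200, where 2.66% rose). The median change was 0.13 in young cells (0.01 over all genes; -0.15 and -0.27 under scaling by library size alone) and -0.04 in senescent cells (-0.01). The first was above 0 in 15 of 17 settings, and was -0.13 on the log2(TPM + 1) scale. The second ran from -0.25 (library size alone) to 0.11 (without senescent control library 1) and was above 0 in 5 of 17 settings. Neither kept the same direction in all settings. In young cells 15 members were higher in both heat-shocked libraries than in both controls (19.5% of all genes) and 2 lower (20.7%). In senescent cells the counts were 7 (14.7%) and 2 (16.4%).

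Beyond SNRPA, PRPF8, TRA2B and SNRNP200, the largest fitted RNA changes were in TRA2A (0.51 ± 0.23) and SF3B1 (0.44 ± 0.41) in young cells. In senescent cells they were in SRRM2 (0.59 ± 0.29), SF3A1 (0.45 ± 0.22) and HNRNPA0 (-0.32 ± 0.32). None of these passed the test with or without the block. The value of HNRNPA0 was the lowest fitted RNA change on heat shock among the members in either state.

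Promoter sequences are shown for 4 members. SNRPA and PRPF8 were taken for the highest fitted RNA changes on heat shock. HNRNPA2B1 and HNRNPC were taken for matches to a heat shock element and not for their response. That element is an inverted repeat of GAA bound by heat shock factors, and the CCAAT box is bound by NF-Y. The 250 bases before the start were searched on both strands in RefSeq promoters (GRCh38.p14) of 39 of the 42 members, 10 of which have more than 1 start. Each sequence gives the 150 bases before the start, 5′ to 3′ on the gene's strand, with matches in capitals, and positions count back from the start, -1 being the base before it.
SNRPA, chr19:40751053-40751202, plus strand: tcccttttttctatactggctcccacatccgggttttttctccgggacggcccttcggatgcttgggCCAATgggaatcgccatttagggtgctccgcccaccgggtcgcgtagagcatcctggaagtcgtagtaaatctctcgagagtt
PRPF8, chr17:1684868-1685017, minus strand: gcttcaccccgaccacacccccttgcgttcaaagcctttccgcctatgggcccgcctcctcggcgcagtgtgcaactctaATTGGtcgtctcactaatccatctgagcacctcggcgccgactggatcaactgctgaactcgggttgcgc
HNRNPA2B1, chr7:26200747-26200896, minus strand: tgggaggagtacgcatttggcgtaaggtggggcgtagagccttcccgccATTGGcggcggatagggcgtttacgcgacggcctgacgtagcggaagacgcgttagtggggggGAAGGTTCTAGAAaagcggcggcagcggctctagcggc
HNRNPC, chr14:21269443-21269592, minus strand: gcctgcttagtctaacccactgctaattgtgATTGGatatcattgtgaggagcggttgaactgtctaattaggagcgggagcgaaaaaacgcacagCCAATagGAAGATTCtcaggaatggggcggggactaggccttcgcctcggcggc

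The capitals in SNRPA (-83 to -79) and PRPF8 (-70 to -66) are CCAAT boxes, the latter on the other strand as ATTGG. HNRNPA2B1 holds ATTGG at -101 to -97 and, at -38 to -26, a heat shock element of 3 units, which is a 2-unit element (GAANNTTC or TTCNNGAA) extended by NNGAA or NNTTC and so made of overlapping 2-unit matches. It was the only member of 39 with 3 units, against 0.557% of 27305 genes. HNRNPC holds a 2-unit element at -47 to -40, next to a CCAAT box at -54 to -50, and ATTGG at -119 to -115. The 2-unit element was found in 5 of 39 members (HNRNPA2B1, HNRNPC, SNRPC, SNRPD2 and SNRPE), 12.8% against 14.0% of genes, and the CCAAT box in 19 of 39, 48.7% against 37.0%. A match describes these letters in this window and is no evidence of binding. HNRNPA2B1 RNA, with the 3-unit match, was at 0.32 ± 0.31 in young and -0.05 ± 0.31 in senescent cells, not past the test, and SNRPA, with none, at the values above.

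Footprints relative to RNA were tested as the footprint change minus the RNA change (translational efficiency, TE, here a statement on counts only). In senescent cells SON passed, at 1.43 ± 0.29 (adjusted p = 0.0222), where 0.233% of 11166 genes rose. SON held at this threshold with the young control footprint libraries counted as 1 sample (adjusted p = 0.0475) and in 12 of 16 fits that left out 1 library. Without senescent control RNA library 1, senescent heat-shocked RNA library 2, senescent control footprint library 1 or senescent heat-shocked footprint library 2, no member was called. SF3B1 had the same fitted change with more spread, 1.43 ± 0.48 (adjusted p = 0.152), and HNRNPA2B1 (1.00 ± 0.48), SRRM1 (0.99 ± 0.40), HNRNPM (0.98 ± 0.32) and HNRNPK (0.93 ± 0.25) followed, not past the test. With replicate number as a block within each assay, 10 members rose, where 3.30% of genes did: SON, SF3B1, HNRNPM, HNRNPA2B1, SRRM1, HNRNPK, HNRNPH1, HNRNPC, TRA2A and TRA2B.

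The 2 U5 genes, which rose in footprints, had efficiency changes near 0 in senescent cells, 0.05 ± 0.34 for PRPF8 and 0.22 ± 0.33 for SNRNP200, beside the fitted RNA changes given above. For the 7 Sm genes the fitted efficiency change ran from 0.18 (SNRPD2) to 0.88 (SNRPG). The median of the members was 0.48 in senescent (0.07 over all genes) and 0.18 in young cells (0.01), and 39 and 33 of 42 were above 0; the young median was 0.092 without young heat-shocked footprint library 1. In young cells no member passed with edgeR, where 0.0896% of genes did. None was under an unadjusted p of 0.05 there (4.13% of genes), and DESeq2 called 0 members and 47 of all genes. The largest fitted changes in young cells were U2AF1 (0.68 ± 0.41), SRRM1 (0.66 ± 0.40), SF3B1 (0.61 ± 0.48), HNRNPU (0.61 ± 0.41), SON (0.55 ± 0.29) and HNRNPA2B1 (0.49 ± 0.48).

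The difference between the heat responses of senescent and young cells was tested directly with edgeR, and no member passed in RNA, footprints or efficiency. Of all genes, 0% passed in RNA, 0% in footprints and 0.00896% in efficiency. DESeq2 called no member in any of the 3 measures, limma on log2 TPM called none in RNA or footprints, and with the block in RNA (0.00759% of genes) none passed either. Over all genes DESeq2 called 3 in RNA, 10 in footprints and 2 in efficiency, and limma called 2 in RNA and 0 in footprints. At an unadjusted p under 0.05 there were 0 members in RNA (0.903% of genes), 1 in footprints (4.91%) and 2 in efficiency (2.24%). So the 10 footprint calls in senescent and the 1 in young cells are not shown to differ. SF3B1 footprints, called in both states, differed by 0.36 ± 0.24. The largest fitted differences in footprints, senescent minus young, were SNRPF (0.69 ± 0.26), SNRPB (0.66 ± 0.50), SON (0.61 ± 0.28), SNRPD3 (0.57 ± 0.32), SNRPE (0.57 ± 0.27) and HNRNPH2 (0.56 ± 0.30), each with an adjusted p of at least 0.834. Of these 6, 4 are Sm ring genes, but none passed the test, so this order shows no difference for that family. The SNRPB value changed sign, to -0.049, without senescent heat-shocked library 2. SNRPE footprints were at 142 and 144 in young control, 126 and 129 in young heat-shocked, 127 and 114 in senescent control and 141 and 177 in senescent heat-shocked libraries. They were lower after heat shock in both young libraries and higher in both senescent ones.

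In RNA the largest fitted differences of response were SRRM2 (0.58 ± 0.41), PRPF8 (0.47 ± 0.39), SF3B1 (-0.46 ± 0.59), TRA2B (-0.44 ± 0.30), SNRPE (-0.40 ± 0.35) and HNRNPM (-0.39 ± 0.29). In efficiency they were SNRPF (1.00 ± 0.42), SNRPE (0.98 ± 0.45), HNRNPM (0.90 ± 0.46), SON (0.88 ± 0.41), SF3B1 (0.83 ± 0.67) and SNRPD3 (0.77 ± 0.41). The medians over members were -0.15 in RNA, 0.26 in footprints and 0.32 in efficiency, against -0.01, -0.01 and 0.02 over all genes. The sizes of these medians depended on single libraries, though no library left out changed a sign. Without senescent heat-shocked footprint library 2 the footprint median was 0.055 and the efficiency median 0.21. The RNA median ran from -0.23 without senescent control library 2 to -0.039 without senescent heat-shocked library 1, with -0.060 without senescent control library 1 and -0.095 without young heat-shocked library 1. On the log2(TPM + 1) scale the footprint median was 0.12 and the RNA median -0.094.

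Between senescent and young control cells no member passed in RNA (0.0379% of genes), in footprints (0%) or in efficiency (0.00896%), with DESeq2 in any measure, with limma on log2 TPM in RNA or footprints, or with the block in RNA, where 3.72% of genes passed. Over all genes DESeq2 called 144 in RNA, 120 in footprints and 5 in efficiency, and limma called 3 in RNA and 0 in footprints. At an unadjusted p under 0.05 there were 0 members in RNA (7.20% of genes), 3 in footprints (7.84%) and 0 in efficiency (0.779%). Fitted changes were mostly negative, with medians of -0.17 in RNA and -0.18 in footprints (0.00 and -0.01 over all genes). The RNA median was -0.071 without senescent control library 2, -0.098 without young control library 1 and -0.31 on the log2(TPM + 1) scale, and the footprint median was -0.12 without senescent control library 2. In RNA 11 members were lower in both senescent than in both young libraries (18.1% of all genes) and 1 higher (17.8%), and in footprints 20 were lower (26.7%) and 1 higher (24.8%). The largest fitted RNA changes were HNRNPA3 (-0.43 ± 0.19), HNRNPA2B1 (-0.42 ± 0.31), HNRNPD (-0.41 ± 0.21), which binds AU-rich mRNAs, SNRPA (-0.41 ± 0.21), SNRNP200 (-0.38 ± 0.27) and PRPF8 (-0.37 ± 0.28). In footprints they were SNRPA (-0.46 ± 0.21), SNRPF (-0.45 ± 0.19), TRA2B (-0.44 ± 0.18), HNRNPAB (-0.42 ± 0.18), SF3A2 (-0.40 ± 0.43) and SNRPG (-0.40 ± 0.29). The members' median efficiency change was 0.02 and turned negative without senescent control footprint library 1 (-0.14), senescent control RNA library 2 (-0.052) or young control RNA library 1 (-0.039), with SF3A2 (-0.45 ± 0.67) and HNRNPH3 (0.38 ± 0.55) farthest out, ahead of SNRPG (-0.33 ± 0.34), SNRPF (-0.32 ± 0.29), PRPF8 (0.31 ± 0.34) and HNRNPF (0.30 ± 0.36).

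After heat shock, RNA of 12 of the 42 genes was lower in senescent than in young cells once replicate number was a block, and of none without it. Without the block 0% of genes passed, and 8 members, all lower, were under an unadjusted p of 0.05 (11.5% of genes). DESeq2 and limma on log2 TPM called 0 members, and 245 and 6 of all genes. With the block 12 were lower and none higher, where 5.62% of genes were lower and 8.12% higher. These were HNRNPA2B1 (-0.77 ± 0.12), HNRNPH1 (-0.72 ± 0.15), TRA2B (-0.71 ± 0.11), HNRNPM (-0.66 ± 0.15), HNRNPA3 (-0.65 ± 0.11), SNRPA (-0.60 ± 0.14), HNRNPH3 (-0.59 ± 0.11), SF3B1 (-0.58 ± 0.16), SON (-0.57 ± 0.11), SNRPE (-0.56 ± 0.15), TRA2A (-0.55 ± 0.14) and HNRNPF (-0.55 ± 0.12). Counts by role were 6 of 15 hnRNPs, 3 of 5 speckle and SR-related genes, 1 of 3 U1 genes, 1 of 8 SF3A and SF3B genes, 1 of 7 Sm genes and none of the U2AF and U5 genes. Blocked adjusted p values ran from 0.0123 (TRA2B) to 0.047 (SF3B1).

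HNRNPA2B1 RNA was at 544 and 401 scaled CPM in young control, 692 and 485 in young heat-shocked, 442 and 265 in senescent control and 386 and 299 in senescent heat-shocked libraries. HNRNPH1 RNA was at 253 and 151 in young control, 279 and 209.8 in young heat-shocked, 210.4 and 104 in senescent control and 189.9 and 115 in senescent heat-shocked libraries. HNRNPM RNA was at 119 and 139 in young control, 130.5 and 168 in young heat-shocked, 114 and 100.0 in senescent control and 87.2 and 102 in senescent heat-shocked libraries. In each of these genes both senescent heat-shocked libraries were below both young ones. HNRNPA3 RNA was at 411 and 352 in young control, 427 and 371 in young heat-shocked, 309 and 259 in senescent control and 257 and 249.7 in senescent heat-shocked libraries. HNRNPH3 RNA was at 141 and 93.6 in young control, 174 and 122 in young heat-shocked, 110.4 and 75.6 in senescent control and 117 and 80.2 in senescent heat-shocked libraries. These were apart as well, as were 25 of the 42 members, all lower, against 21.3% of all genes, while none was higher, against 21.7%. In HNRNPA2B1, HNRNPA3, HNRNPH1, HNRNPH3, SF3B1, SON, TRA2A and TRA2B, library 1 was above library 2 in all 4 RNA groups. Among the genes called with the block whose RNA values are printed, HNRNPM and SNRPA did not have this order throughout.

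The median RNA difference after heat shock was -0.26 (-0.04 over all genes). Across 13071 genes these differences followed GC content (Spearman 0.486), as they did across the 42 members (0.557); genes are not independent replicates, and the points share libraries. With each library's trend with GC content removed, 7 members were lower with the block and none without it. Over all genes 336 were then lower and 274 higher with the block, and 8 and 16 without it. The summed level of 6 epithelial markers was 46.7 to 66.8 TPM in young and 93.8 to 107 TPM in senescent RNA, nearly all of it KRT19, with EPCAM at most 0.43 TPM and SFTPC and NKX2-1 at 0. Its part in the result was not tested.

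In footprints none of the 42 passed between heat-shocked senescent and young cells (0.00886% of genes), DESeq2 and limma on log2 TPM called 0, and 2 members were under an unadjusted p of 0.05 (13.0% of genes). Over all genes DESeq2 called 143 and limma 0. The median was 0.13 (0.00 over all genes), with 11 members higher in both senescent libraries (20.4% of all genes) and 6 lower (20.1%). The median was -0.0090 without senescent heat-shocked library 2, 0.070 without young heat-shocked library 2, 0.20 without the first library of either group and -0.016 on the log2(TPM + 1) scale, so its direction was not settled. The largest fitted changes were HNRNPA0 (-0.55 ± 0.20), SNRPB (0.54 ± 0.35), SNRPD2 (0.52 ± 0.19), HNRNPA3 (-0.50 ± 0.37), HNRNPD (-0.44 ± 0.31) and SNRPD3 (0.44 ± 0.23). Tested as efficiency, no member passed (0% of genes), DESeq2 called 0, and 6 members, all higher, were under an unadjusted p of 0.05 (6.56% of genes). Over all genes DESeq2 called 23 in efficiency. The median was 0.30 (0.03 over all genes), with 38 of 42 above 0, and 0.47 without young heat-shocked footprint library 1. SON (0.99 ± 0.29), SF3B1 (0.92 ± 0.48), SNRPE (0.90 ± 0.32), HNRNPM (0.81 ± 0.32), HNRNPH1 (0.69 ± 0.49) and SNRPF (0.68 ± 0.29) had the largest fitted changes. This comparison shares its heat-shocked libraries with the tests of heat shock above.

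**Figure D4:**
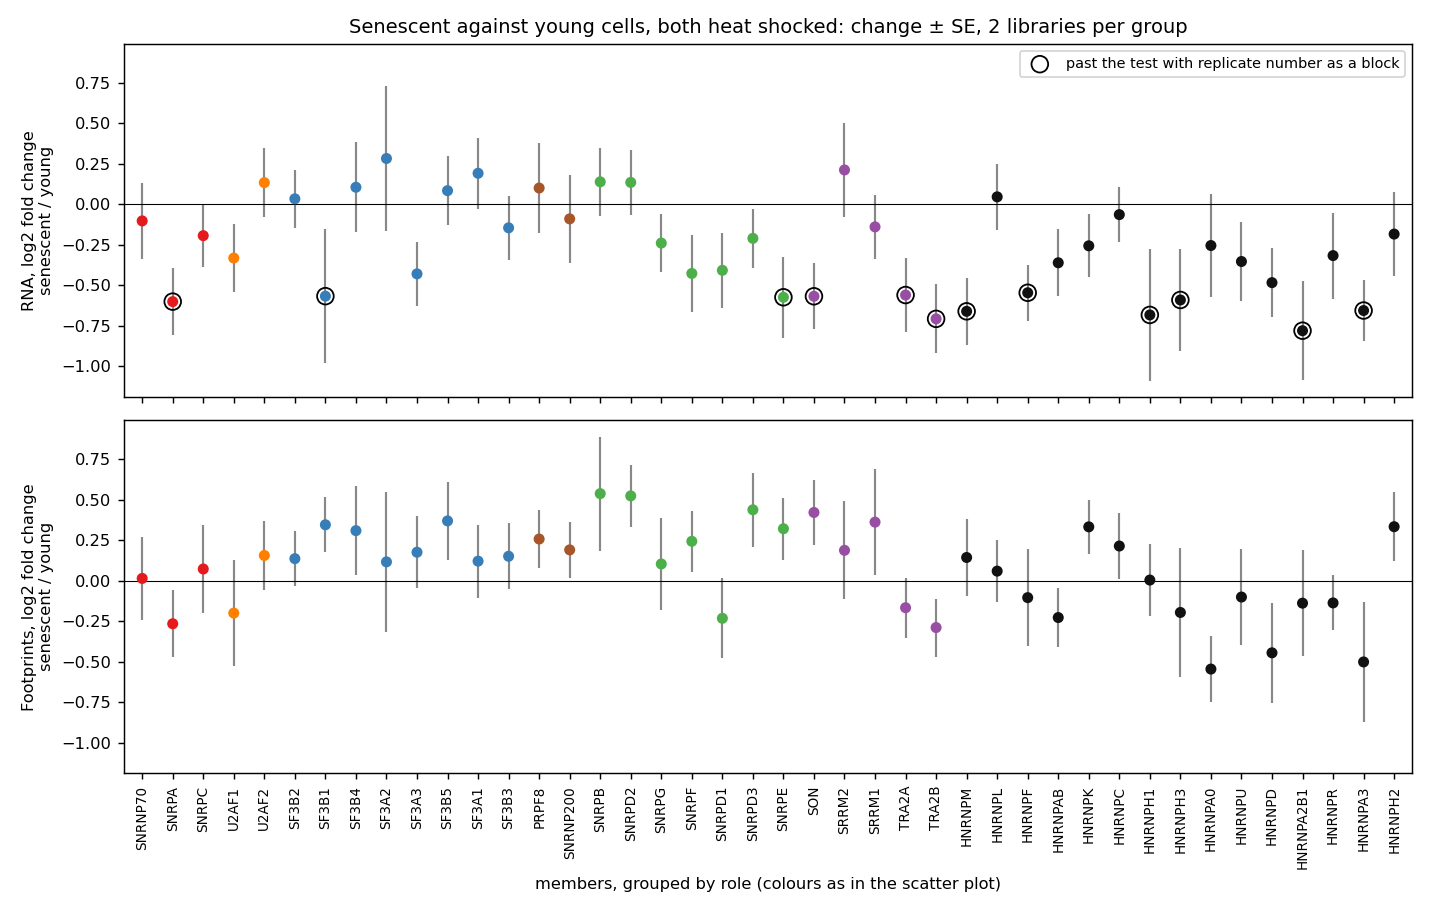
Log2 fold change between senescent and young heat-shocked cells (y axes) in RNA (top) and footprints (bottom) for each of the 42 genes (x axis, grouped by role), with lines of 1 SE either way from fits without a block. Rings mark the 12 genes that passed with replicate number as a block. In RNA 31 genes lie below 0, down to -0.78 for HNRNPA2B1, and in footprints 28 lie above 0.

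Other genes of the pathway were read from lists of the remaining U2 snRNP proteins, U1 partners, tri-snRNP, LSm ring, Prp19 complex and helicases, exon junction complex, minor spliceosome, other hnRNPs, SR proteins, SR kinases and snRNP assembly factors. They are read against the shares of all genes given above, 0.771% higher in young and 3.12% higher in senescent footprints. In footprints, kinases that phosphorylate SR proteins had the largest changes among these lists. CLK4 rose by 3.41 ± 0.42 in young and 4.30 ± 0.47 in senescent cells, and CLK1 by 3.34 ± 0.49 and 3.93 ± 0.52, and these were the 2 of 7 SR kinases that passed in each state. In RNA CLK4 was at 1.81 ± 0.50 and 1.65 ± 0.51 and CLK1 at 1.99 ± 0.64 and 1.37 ± 0.64, past the test only with the block (adjusted p = 0.00101, 0.00300, 0.000242 and 0.00239).

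Of the 7 U1 partners, LUC7L rose in footprints by 1.76 ± 0.25 in young cells, and 4 rose in senescent cells, led by LUC7L (2.12 ± 0.26), RBM25 (1.26 ± 0.28) and LUC7L3 (1.10 ± 0.23). Of 11 SR proteins tested, SRSF11 rose in young cells (1.03 ± 0.18) and 3 in senescent cells, SRSF11 (1.01 ± 0.18), SRSF7 (0.92 ± 0.19) and SRSF1 (0.78 ± 0.19). In senescent footprints 1 member each of the other U2 proteins (SNRPB2, 0.77 ± 0.18), the 14 tri-snRNP proteins (SNU13, 0.68 ± 0.17), the 7 LSm proteins (LSM5, 1.37 ± 0.33) and the 9 exon junction complex proteins (MAGOH, 1.02 ± 0.24) rose as well. None of the 16 Prp19 complex and helicase genes passed, at a median of 0.41. With the young control footprint libraries counted as 1 sample, only CLK4 (adjusted p = 0.00454), CLK1 (0.0118) and LUC7L (0.0118) of all these genes were still called in senescent footprints. In young footprints none was, with CLK4 at 0.0971, CLK1 and LUC7L at 0.226 and SRSF11 at 0.442.

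The genes of these lists that fell were few. GEMIN4, part of the SMN complex that loads Sm rings onto snRNAs, fell in RNA by 1.40 in young and by 1.43 in senescent cells (SE 0.22 each), and in senescent footprints by 1.44 (SE 0.26). SNRNP35, a protein of the minor spliceosome, fell in RNA by 1.64 and by 1.84 (SE 0.23 each). PCBP2, a poly-C-binding hnRNP that also acts in the cytosol, fell in senescent footprints by 0.98 (SE 0.24) and in efficiency by 1.43 (SE 0.35), while LUC7L (1.86 ± 0.39) and SRSF7 (1.18 ± 0.28) rose in efficiency there. With the young control footprint libraries as 1 sample these footprint and efficiency calls were lost, at adjusted p values of 0.0661 (GEMIN4), 0.103 and 0.0895 (PCBP2), 0.0515 (LUC7L) and 0.0847 (SRSF7). Between senescent and young cells, and in the difference of the heat responses, no gene of these lists passed in any of the 3 measures without the block. With the block 15 of them were lower and none higher in senescent heat-shocked than in young heat-shocked RNA (5.62% of genes lower, 8.12% higher). The total of list genes tested is not given here, so the 15 cannot be set against these shares. They were spread over 9 lists, with CLK1 (adjusted p = 0.0117), PTBP2 (0.0176) and PRPF4B (0.0192) at the lowest adjusted p. DDX46, a U2-associated helicase, was the gene also lower in senescent control RNA with the block, and none of these lists' genes passed with it in footprints or efficiency in these 3 comparisons.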

How the data were processed

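The authors deposited 4 gene tables, expected counts and TPM for each assay, with the 8 libraries of that assay as columns. The submitters' processing notes name STAR, Bowtie2, RSEM and the hg19 build, with roles and versions not given in the sources used here. Per the labels' protocols, RNA was taken with TRIzol and made into TruSeq libraries, and footprints were made with RNase If and collected through a sucrose cushion. The deposited expected counts were whole numbers already. Gene-level counts show no isoforms. All 16 libraries have a group, with 2 per group.

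The counts were fitted with edgeR 4.0.16 (R 4.3.3) by quasi-likelihood with filterByExpr, TMM scaling and group means, 1 fit per assay with 4 residual degrees of freedom, and efficiency in 1 fit of both assays with 8. This left 13177 genes in RNA, 11288 in footprints and 11166 for efficiency. Adjusted p values are Benjamini-Hochberg values over all genes tested, with a threshold of 0.05, and errors are Wald standard errors of the log2 fold change. Depth was 26434514 to 37126871 counts per RNA library and 4581141 to 9104077 per footprint library, so counting error is larger for footprints. The deposited TPM values were used for levels and ratios, and on the log2(TPM + 1) scale with limma 3.58.1 as an alternative.

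Same-numbered RNA libraries deviated together from their group means (correlations of 0.481 to 0.658 over the 6 pairs of groups), while those of footprints did so in the 3 pairs without young control (0.245 to 0.329) and not in the 3 with it (-0.038 to -0.028). The labels do not say what a replicate number marks. Fits with replicate number as a block are therefore printed beside the results they change. Alternatives were DESeq2 1.42.0, other scalings, no filter on low counts, limma, the replicate block, the young control footprint libraries as 1 sample and leaving out each library. An alternative that takes out, per library, the dependence on GC content (loess, span 0.3) was chosen after seeing the data. The genes named per comparison are all members called and up to 3 called genes of each related list. Where fewer than 6 members were called, those with the largest fitted changes were added, up to 6 in all. SNRPE levels, SF3B3 and other members were named after their values were seen. The members and lists were chosen with earlier results of these data known. The edgeR fits were tested on simulated data.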

Additional observations from a re-analysis of the deposited data

How the results depend on the processing

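Counts of members called are given throughout, out of 42. With the replicate block they were 2 in young RNA on heat shock, 3 in senescent RNA, 12 between heat-shocked senescent and young RNA, 4 in young and 17 in senescent footprints and 10 in senescent efficiency. The footprint numbers did not meet the rule for pairing, a correlation over 0.1 in every pair of groups, and the block changed no count of members in the other 9 comparisons. DESeq2 gave 1 and 1 in young and senescent RNA, 6 and 16 in footprints and 2 in senescent efficiency. Over all genes it called 221 and 126 higher in RNA, 238 and 613 higher in footprints and 115 higher in senescent efficiency. Without the filter on low counts there were 4 and 16 in footprints and 2 in senescent efficiency. Over all genes 197 and 488 were then higher in footprints and 45 in senescent efficiency. With limma on log2(TPM + 1) there were 0 and 5 in footprints, 1 of the 5 lower. Over all genes limma called 45 and 111 higher and 35 and 887 lower. Over all genes tested, senescent footprint calls on heat shock were 943 as reported, 1667 with the block, 1515 with DESeq2 and 247 with the young control libraries as 1 sample, and young RNA calls were 88 higher and 62 lower as reported, 480.0 and 676 with the block and 221 and 224 with DESeq2.

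With the GC trend removed 1 member was called in young RNA and 3 in young footprints, all higher. Over all genes 188 and 112 were then higher. With the replicate block as well there were 4 in young RNA, 3 in senescent RNA, 7 between heat-shocked RNA groups, 4 and 21 in footprints and 6 in senescent efficiency. Over all genes this fit called 553 higher in young RNA, 266 higher in senescent RNA and 336 lower between heat-shocked RNA groups. It called 200 and 817 higher in footprints and 293 higher in senescent efficiency. With the young control footprint libraries as 1 sample there were 0 and 3 in footprints. Leaving out 1 library at a time gave 0 to 4 in young footprints, 1 to 15 in senescent footprints, 0 to 3 in senescent efficiency and 0 in every other comparison. When that leaves a lone library, it is assumed to vary like the other groups.

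Of the values of named genes under the alternatives, 1648 kept direction and side of the threshold, 65 lost and 56 gained a call, and 9 changed sign. None of these 9 was a called value, each came from leaving out 1 library, and the cause was not tested. Their ranges when leaving out 1 library were, in the difference of heat responses, -0.94 (without young control library 1) to 0.18 (without senescent control library 1) for SF3B1 RNA, and -0.049 to 1.10 for SNRPB footprints (without senescent heat-shocked library 2 and 1). Between heat-shocked footprints they were -0.18 to 0.97 for SNRPB (the same libraries), and -0.96 to 0.092 for HNRNPA3 and -0.85 to 0.039 for HNRNPD (without young heat-shocked library 2 and 1). In efficiency between controls they were -0.0021 to 0.70 for PRPF8 and -0.97 to 0.37 for SF3A2 (without senescent control RNA library 1 and 2), and -0.19 to 0.79 for HNRNPH3 (without senescent control footprint library 1 and 2). In efficiency on heat shock in young cells the range was -0.028 to 0.85 for HNRNPA2B1 (without young heat-shocked footprint library 1 and 2).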
